A study of Mus musculus with 54 samples.

Results

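The second step of an Ebf1ER time course, 24 h against 6 h of 4OHT, is described here at 1172 Ebf1-bound regions of the mouse genome (build mm10), all rows of the 2 deposited tables that hold the time course. Of these, 256 were closed and 916 were open in Ebf1-KO cells by the authors' classes, and the series' accessibility table lists 4983 regions in all. The cells were Ebf1-KO fetal liver progenitors, labelled ProB, on the C57BL6/J background. They were expanded on OP9 stroma in the presence of interleukin-7, KIT ligand and FLT3 ligand, transduced with the retroviral vector pMiG-Ebf1ER and treated with 4OHT. Accessibility was read by ATAC-seq, in which a transposase cuts open chromatin, at 0, 6, 24 and 72 h, with 2 labelled samples per time pooled into 1 column of GFP-positive cells per time. The step from 6 to 24 h thus rests on 4 of the 54 labelled samples of the series. Wt and Ebf1-KO progenitors without the vector served as outside references, and all Ebf1ER cells carried the Ebf1 deletion.

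The pooled columns leave no replicates, so there is no test across samples, and every difference compares these libraries. The labels name no control in which cells without Ebf1ER received 4OHT, so Ebf1ER activity, the drug itself and time in culture cannot be told apart. Accessibility is given as tags counted in a region and scaled to 10000000 tags per library, in short tags, with 95% intervals that cover counting error only. Library totals lay between 34710011 and 47293654 tags, and all 1172 regions together held 0.234, 0.285, 0.342 and 0.352% of the libraries at 0, 6, 24 and 72 h. The regions lie near genes that the study selected as enriched in Wt, and their Ebf1 binding was mapped in the Abelson-transformed 230-238 cell line, not in the induced cells. The B-lineage markers Cd79a, Cd79b, Igll1, Vpreb1 and Ebf1 had a region, and none of the T, myeloid, innate lymphoid, erythroid or stromal markers had one, as the tables list only regions of the selected genes. The cell makeup of the cultures was therefore not tested. In bulk ATAC-seq, more cells with an open region and more opening per cell cannot be told apart.

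Ebf1 is a transcription factor that specifies the B-cell lineage together with E2A and upstream of Pax5. It binds DNA as a dimer to a palindrome with the core CCC and GGG, and in B-cell progenitors it is known for opening chromatin at genes of the pre-B-cell receptor, such as Cd79a, Cd79b, Igll1 and Vpreb1. A fusion of Ebf1 with the ligand-binding domain of the estrogen receptor stays inactive until 4OHT, a tamoxifen metabolite, binds it. Adding 4OHT to cells without their own Ebf1 therefore starts Ebf1 activity at a known time.

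Promoter windows of 4 genes are printed as examples from regions of different time courses. They were placed by the transcription start, so the bases that Ebf1 bound may lie outside them. In each, 250 bases before to 50 bases after the transcription start are given 5′ to 3′ on the gene's strand, from RefSeq (GRCm38.p6), and capitals mark CCCNNGNG on either strand. That wider core was added after the stricter CCCNNGGG had been counted. Igll1 was at least 1.5-fold higher in both steps, at 6 h over 0 h and at 24 h over 6 h, Cd79a and Fam129c in the first step only, and Col27a1, which has no match in its window, in the second step only.
Igll1 (chr16:16863936-16864235, minus strand): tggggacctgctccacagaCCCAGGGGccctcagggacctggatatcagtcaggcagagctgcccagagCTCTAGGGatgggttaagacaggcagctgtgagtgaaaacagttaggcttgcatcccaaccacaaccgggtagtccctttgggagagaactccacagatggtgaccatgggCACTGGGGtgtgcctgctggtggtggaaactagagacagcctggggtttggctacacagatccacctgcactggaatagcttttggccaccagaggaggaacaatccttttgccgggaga
Cd79a (chr7:24897247-24897546, plus strand): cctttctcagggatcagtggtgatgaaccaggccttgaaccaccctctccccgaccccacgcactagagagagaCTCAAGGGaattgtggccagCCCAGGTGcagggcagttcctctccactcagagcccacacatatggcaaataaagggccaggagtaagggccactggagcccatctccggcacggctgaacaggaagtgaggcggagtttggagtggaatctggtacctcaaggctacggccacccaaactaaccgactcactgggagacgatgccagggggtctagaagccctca
Fam129c (chr8:71597458-71597757, plus strand): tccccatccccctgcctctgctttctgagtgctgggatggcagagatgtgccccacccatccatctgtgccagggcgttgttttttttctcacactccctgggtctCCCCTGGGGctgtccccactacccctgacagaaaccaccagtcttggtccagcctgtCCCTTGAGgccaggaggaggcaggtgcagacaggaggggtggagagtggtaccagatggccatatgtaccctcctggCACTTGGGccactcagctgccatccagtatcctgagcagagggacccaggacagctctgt
Col27a1 (chr4:63215162-63215461, plus strand): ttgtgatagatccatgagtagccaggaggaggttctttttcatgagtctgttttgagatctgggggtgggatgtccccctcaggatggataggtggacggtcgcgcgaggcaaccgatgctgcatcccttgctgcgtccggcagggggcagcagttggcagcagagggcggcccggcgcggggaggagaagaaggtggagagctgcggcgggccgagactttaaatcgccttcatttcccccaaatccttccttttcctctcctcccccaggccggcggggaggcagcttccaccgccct

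Of the 178 regions annotated as promoters, 113 matched a RefSeq window. CCCNNGGG occurred in 41 of these windows (36.3%, 95% Wilson interval 28.0–45.5), against 13.7% of all 32851 RefSeq promoter windows. The wider CCCNNGNG, which contains it, occurred in 83 (73.5%, 64.6–80.7), against 51.8% of all windows. The letters of other factors' motifs, also searched on both strands, were not more common than in promoters at large. The E-box CANNTG was in 63.7% against 72.3%, the Ets core GGAA in 91.2% against 96.0%, and the Runx core TGTGGT in 9.73% against 16.8%. A match is a description of letters only, and these promoters were listed because Ebf1 bound them in the Abelson line. By time course the windows were few, and CCCNNGGG was in 5 of 11 promoters at least 1.5-fold higher at 24 h than at 6 h and in 32 of 92 that gained in neither step.

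At 24 h most of the Ebf1-bound regions held somewhat more tags than at 6 h when scaled by library totals, and a minority held far more. The median log2 ratio of 24 h over 6 h, computed on value plus 1, was 0.25 (0.23–0.28) over all regions, with 885 of 1172 (75.5%) above 0. It was 0.29 (0.17–0.37) in closed regions and 0.25 (0.23–0.27) in open regions. Median levels were 4.37 tags at 24 h and 3.75 at 6 h in closed regions, and 21.6 at 24 h and 17.6 at 6 h in open regions. At a limit of 1.5-fold on that scale, 213 regions (18.2%) were higher and 56 (4.78%) were lower at 24 h. At a limit of 2-fold, 38 (3.24%) were higher and 11 (0.939%) were lower.

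The closed regions held 75 of the higher regions (29.3% of that class, 24.1–35.1) and the open regions 138 (15.1%, 12.9–17.5). The closed regions also held 31 of the 56 lower ones, and their low tags widened both tails. The exact counting interval of the fold lay above 1 in 31 of the 75 closed and 117 of the 138 open higher regions, and below 1 in 21 of the 56 lower regions. How tags are scaled decides the split. Under TMM scaling, which sets the bulk of the listed regions level, the median of all regions was -0.00, against 0.25 with library totals, and 92 regions were higher and 102 lower. The share of higher regions among those past the limit was 79.2% with library totals and 47.4% under TMM, and all 92 were among the 213. Median log2 ratios under TMM were 0.07 in closed and -0.01 in open regions, so the direction of the open class rests on scaling by library totals. The tables hold no regions outside the Ebf1-bound set by which either scaling could be checked.

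**Figure D1:**
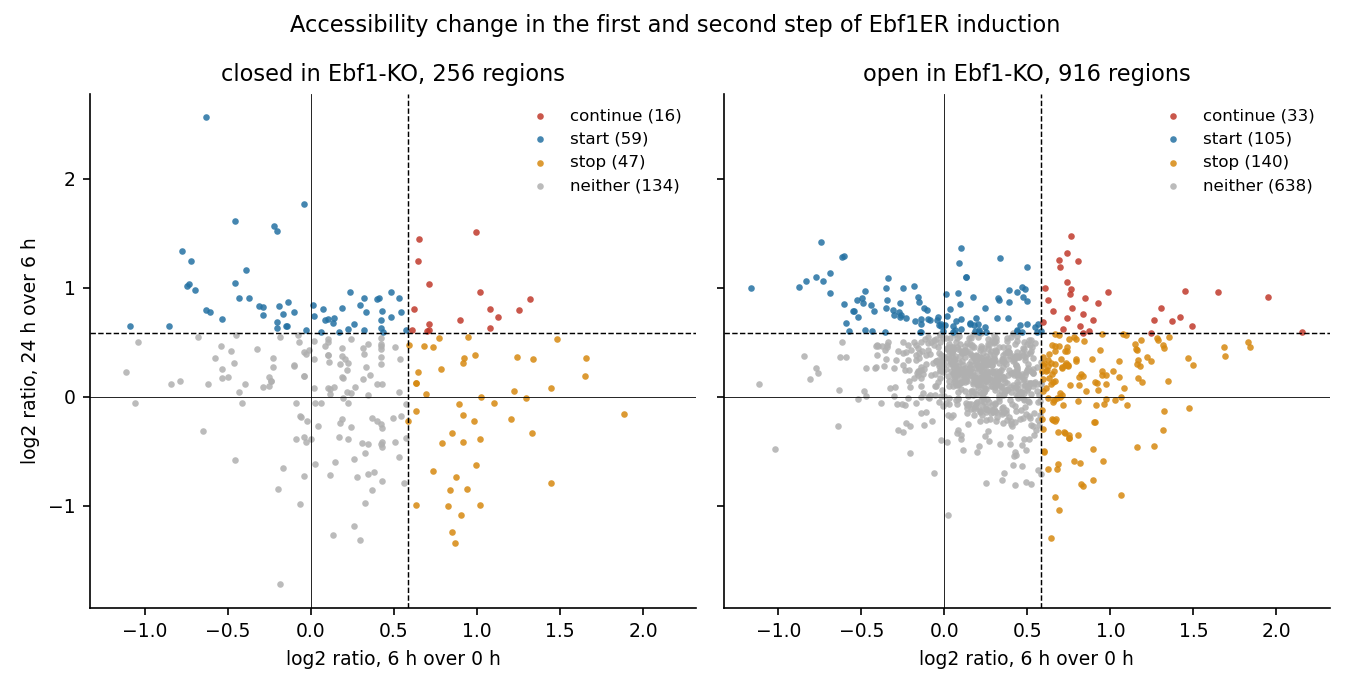
Each point is 1 region, with the log2 ratio of 6 h over 0 h on the horizontal axis and of 24 h over 6 h on the vertical axis, for 256 closed (left) and 916 open regions (right). Dashed lines mark 1.5-fold. The points spread widely in closed regions, where levels are low, and the 33 open regions that continue to gain sit in the upper right corner.

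Among regions with at least 10 (closed) or 20 (open) tags at either time, the largest folds of the step lay near Asb2, Tnfrsf19 and Sh3kbp1 in the open class and near Pde8a, Plekhm3 and Bnip3 in the closed class, none of which is on the gene lists below. The largest open fold was at an intergenic region at -3537 bp from the start of Asb2 (chr12:103358899-103360178), the gene of a substrate-binding subunit of a ubiquitin ligase. It held 8.25, 14.7, 42.6 and 51.6 tags at 0, 6, 24 and 72 h. The counting intervals were 36.2–49.8 at 24 h and 10.9–19.3 at 6 h, and the fold was 2.90 (2.10–4.06). The values climbed at every time, and at 24 h stood close to the Wt value of 45.6 tags.

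Tnfrsf19, which encodes a receptor of the tumour necrosis factor family, had an intronic region at its start (chr14:61037313-61038298) with 7.19, 7.78, 21.6 and 16.4 tags. It was level up to 6 h and 2.77-fold (1.77–4.47) higher at 24 h than at 6 h. An intronic region of Sh3kbp1 (chrX:159650006-159651121), the gene of an adaptor that links the B-cell receptor to Cbl, held 5.29, 9.51, 25.1 and 26.8 tags and was 2.64-fold (1.76–4.06) higher at 24 h. The 72 h value of Sh3kbp1 was close to that of 24 h, and both stayed far below the 96.3 tags of Wt cells.

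Akap12, which encodes a scaffold for protein kinase A, had 5.50, 9.51, 24.0 and 30.2 tags in an intergenic region (chr10:4260933-4261962), with 24 h 2.53-fold (1.68–3.90) above 6 h. An intergenic region near the sodium channel gene Scn11a (chr9:119841017-119842090) had 4.86, 9.22, 23.2 and 21.03 tags, 2.52-fold (1.66–3.91) higher. At the transcript end of Arl5c, which encodes an Arf-like GTPase (chr11:98000221-98000812), the values were 8.67, 14.7, 34.7 and 24.5 tags, 2.36-fold (1.69–3.33) higher. These 3 regions were higher at 6 h than at 0 h, with a larger fold in the second step, and Arl5c was lower again at 72 h than at 24 h. Camk1g, the gene of a calmodulin-dependent kinase, had 5.29, 9.51, 20.8 and 19.3 tags in an intronic region next to its start (chr1:193369753-193370579), with 24 h 2.18-fold (1.43–3.39) above 6 h. All 8 largest open regions, with Gng4 below, stayed at least 1.5-fold higher at 24 h than at 6 h under TMM.

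The largest closed fold was at an intergenic region at -15015 bp from the start of Pde8a (chr7:81198611-81198968), the gene of a phosphodiesterase that degrades cAMP. It held 2.33, 1.15, 11.7 and 6.34 tags and was 10.2-fold (3.70–39.1) higher at 24 h than at 6 h, from 4 sequenced tags at 6 h. A second Pde8a region, at the promoter (chr7:81213214-81213687), held 11.2, 13.0, 12.8 and 18.1 tags and was level over the step (0.990-fold, 0.644–1.52). The distal region thus differed between the times far more than this promoter region of the same gene. Of the 4 regions of Pde8a in the set, 2 were at least 1.5-fold higher at 24 h than at 6 h.

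An intron of Plekhm3 (chr1:64866103-64867099) held 4.86, 4.03, 13.9 and 10.9 tags, with 24 h 3.45-fold (1.88–6.76) above 6 h. An intron of Bnip3, which encodes a mitophagy receptor (chr7:138903754-138904469), held 3.81, 3.17, 10.9 and 7.49 tags, 3.45-fold (1.74–7.45) higher. Neither had gained by 6 h, and both were lower at 72 h than at 24 h. By contrast, an intron of Gopc, the gene of a Golgi protein (chr10:52373809-52374226), with 2.11, 5.19, 16.7 and 15.6 tags, and an intergenic region 30897 bp from Scd1 (chr19:44376359-44377265), the gene of stearoyl-CoA desaturase, with 4.23, 7.20, 21.3 and 23.3 tags, gained in both steps. Their folds of 24 h over 6 h were 3.21 (1.87–5.78) at Gopc and 2.96 (1.86–4.85) at Scd1. The kinase gene Akt2 (chr7:27578375-27578860), with 16.4 tags at 24 h and 8.35 at 6 h, and the myosin gene Myh10 (chr11:68718960-68719815), with 12.8 tags at 24 h and 6.91 at 6 h, did so by smaller folds of 1.96 (1.24–3.17) and 1.86 (1.11–3.17). Under TMM the log2 ratio of Myh10 for 24 h over 6 h was 0.56, just below the limit of 0.58.

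**Figure D2:**
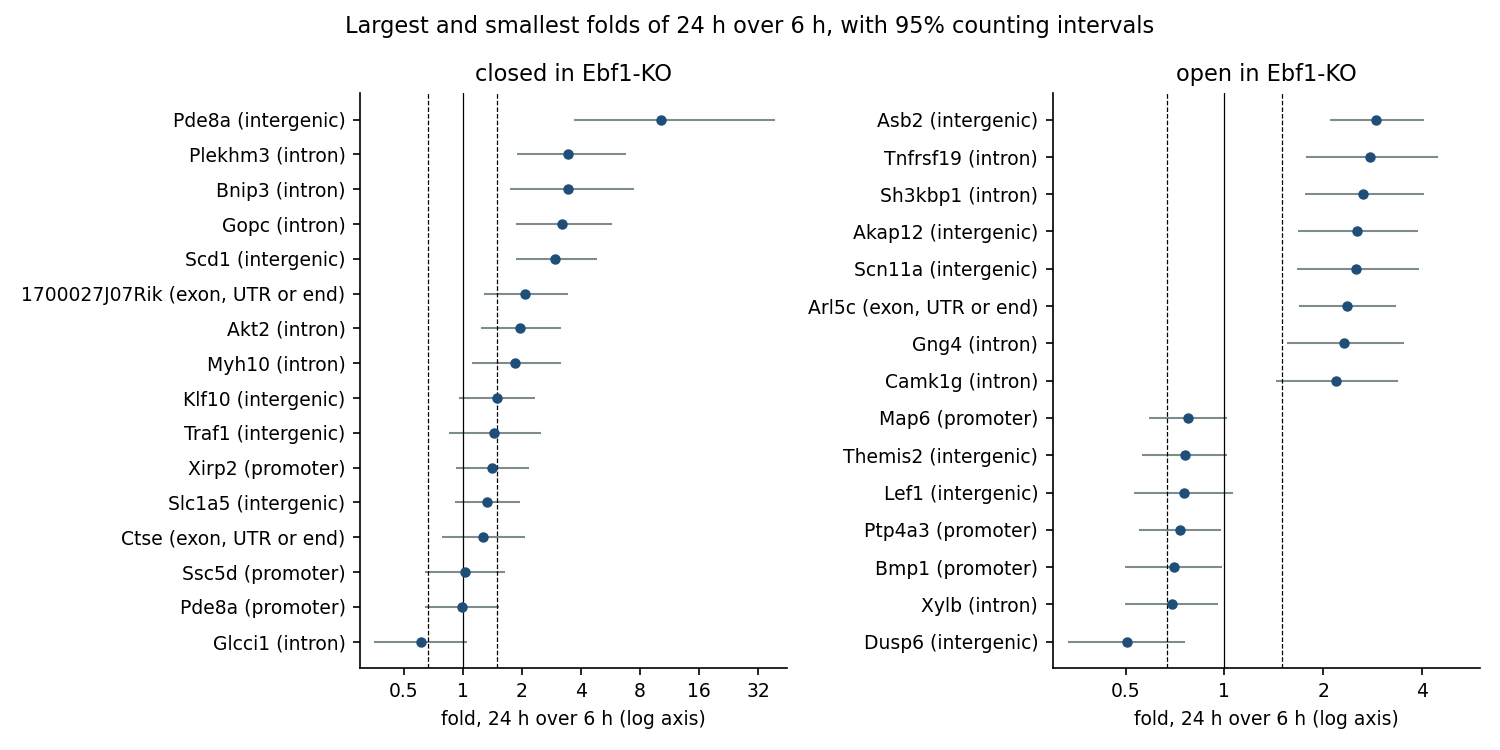
Folds of 24 h over 6 h on a log axis for the largest and smallest folds among closed regions with at least 10 tags (left) and open regions with at least 20 tags (right) at either time, with 95% counting intervals, a solid line at 1 and dashed lines at 1.5-fold either way. All 8 of the largest folds in each class have intervals above 1, and among the smallest folds the open Dusp6 region lies furthest below 1.

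Regions with fewer tags at 24 h than at 6 h were the smaller group with library totals. Of the 56 past the 1.5-fold limit, 11 were at least 2-fold lower, against 38 at least 2-fold higher among the 213 higher regions. Among open regions with at least 20 tags at either time, the one with the lowest ratio lay 130305 bp from the start of Dusp6 (chr10:99392899-99394173), the gene of a phosphatase that inactivates ERK. It held 12.9, 21.03, 10.7 and 10.7 tags and was 0.506-fold (0.334–0.757) at 24 h of its 6 h level, so its highest value was at 6 h. The contact list of the Abelson line joins it to the Dusp6 promoter, with a contact count of 36 and a q-value of 2.56e-08 as the authors deposited them.

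The next lowest open regions at this tag level kept more than 1 / 1.5 of their 6 h level with library totals, while 25 open regions of any level passed the limit as lower. The intron of Xylb, the xylulokinase gene (chr9:119357185-119358248), had 18.6 tags at 24 h and 26.8 at 6 h (0.693-fold, 0.499–0.958). The promoter of Bmp1, a procollagen protease gene (chr14:70519904-70520958), had 17.2 tags at 24 h and 24.5 at 6 h (0.703-fold, 0.499–0.985). The promoter of the phosphatase gene Ptp4a3 (chr15:73747498-73748495) had 24.3 tags at 24 h and 33.1 at 6 h (0.734-fold, 0.550–0.976). Xylb and Ptp4a3 were back at 27.4 and 37.5 tags at 72 h, while Bmp1 was at 17.6. Under TMM all 3 passed the limit as lower at 24 h, with log2 ratios of -0.77 at Xylb, -0.74 at Bmp1 and -0.69 at Ptp4a3. In the closed class the lowest ratio with at least 10 tags was in an intron of Glcci1 (chr6:8531045-8532041), at 6.56 tags at 24 h and 10.7 at 6 h, with an interval that spans 1 (0.615-fold, 0.352–1.06). Only 25 closed regions reached 10 tags at either time, so most of the 8 smallest closed folds were at or above 1.

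Each region was then placed by both steps, with the 6 h column entering both ratios, so that a low or high 6 h value moves them in opposite directions. A region continued to gain if it was at least 1.5-fold higher at 6 h than at 0 h and again at 24 h than at 6 h, started if only the second ratio passed, and stopped if only the first did. At 6 h against 0 h, 236 regions (20.1%) had passed. Of all regions, 49 continued (4.18%), 164 started (14%), 187 stopped (16%) and 772 gained in neither step. Of the closed regions 16 continued, 59 started and 47 stopped, and of the open regions 33, 105 and 140. At a 2-fold limit on the same value-plus-1 scale, 0 regions passed in both steps, although the plain values at Gopc and Heyl more than doubled in each. With TMM, 9 continued, 83 started and 108 stopped. Within 0.1 log2 units of the limit for 24 h over 6 h lay 138 regions, 63 above it and 75 below, so the classes are ranges with no gap between them.

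Levels of the regions that continued were 4.86, 10.1, 20.2 and 20.2 tags at the median over the 4 times, against 5.50, 5.47, 11.5 and 10.5 tags in those that started. In those that stopped the medians were 5.92, 12.4, 12.8 and 13.8 tags, and in the rest 13.9, 16.4, 17.9 and 19.6 tags. All 3 gaining classes began at low levels, and after 24 h none moved far. The median log2 ratio of 72 h over 24 h was -0.02 in regions that continued, -0.10 in those that started and 0.10 in those that stopped. At 72 h, 105 of all regions (8.96%) were at least 1.5-fold higher than at 24 h and 62 (5.29%) lower. Regions that started numbered 7 of the higher and 25 of the lower, and those that stopped 15 and 7. The 24 h column enters both the classes and the 72 h over 24 h ratio, so part of this contrast is built in. By definition, no region that stopped was 1.5-fold higher at 24 h than at 6 h. Of the 187, 162 stayed within 1.5-fold of their 6 h level and 25 were lower, against 56 lower of all 1172 (4.78%). A high 6 h value favours both placement in this class and a lower 24 h over 6 h ratio. At 24 h, 10 of the 187 were below their 0 h level. In 23 of the 187 the counting interval of the second step still lay above 1. Counting intervals lay above 1 for both steps in 34 of the 49 regions that continued, for the second step in 104 of the 164 that started, and for the first step in 142 of the 187 that stopped.

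**Figure D3:**
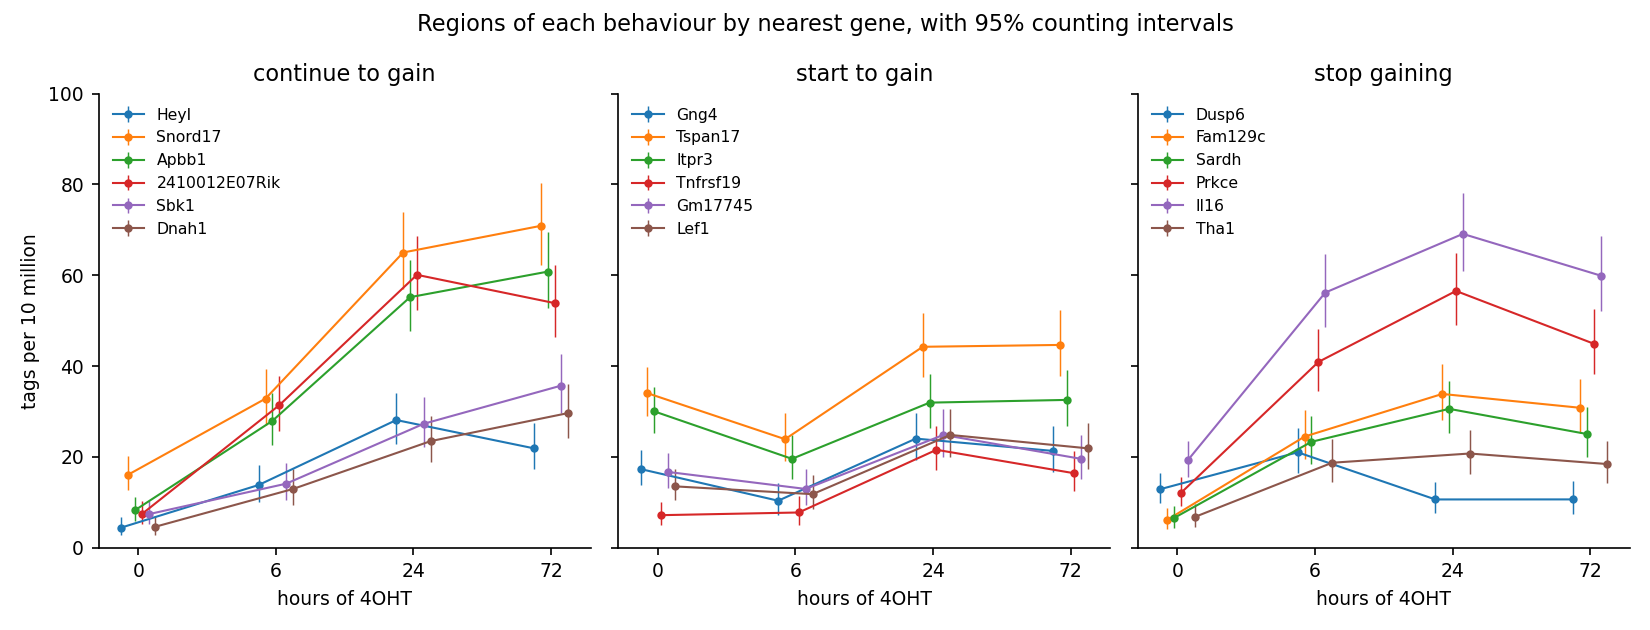
Tags per 10000000 at 0, 6, 24 and 72 h for 6 of the leading regions of each behaviour, with 95% counting intervals, labelled by nearest gene. Regions that continue climb at both steps, regions that start are flat or dip at 6 h, and regions that stop reach most of their height by 6 h.

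Among regions with at least 20 tags, the one that continued with the highest smaller ratio was an intergenic region at -5091 bp from the start of Heyl (chr4:123228091-123228839), a transcriptional repressor gene downstream of Notch. It held 4.44, 13.8, 28.1 and 21.9 tags, with 6 h 3.11-fold (1.83–5.48) above 0 h and 2.03-fold (1.43–2.93) higher at 24 h than at 6 h. At 24 h it exceeded the Wt level of 14.5 tags. The promoter of Apbb1, which encodes the adaptor Fe65 (chr7:105568490-105569791), held 8.25, 27.9, 55.2 and 60.8 tags, with folds of 3.39 (2.31–5.05) and 1.97 (1.54–2.54). It too passed its Wt level of 44.9 tags by 24 h.

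An intergenic region nearest 2410012E07Rik (chr14:70849759-70850747) held 7.40, 31.4, 60.1 and 53.9 tags and combined 4.24-fold (2.88–6.40) in the first step with 1.91-fold (1.51–2.43) in the second. An intergenic region 26412 bp from Snord17, a small nucleolar RNA gene (chr2:144239171-144240410), held 16.1, 32.8, 65.0 and 70.9 tags and approached its Wt value of 70.7 tags by 24 h. Introns of the kinase gene Sbk1 (chr7:126277133-126278449), with 7.40, 14.1, 27.3 and 35.7 tags, and of the dynein gene Dnah1 (chr14:31312730-31314070), with 4.65, 13.0, 23.5 and 29.7 tags, were highest at 72 h. At 24 h they stood at 27.9 and 25.7% of their Wt values. Dnah1 lost its second gain under TMM, with a log2 ratio of 0.55.

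Regions that started were ranked by the second log2 ratio minus the first, so a low 6 h value places a region high and a dip at 6 h is in part built into the leading ones. Over all 164 the median log2 ratio of 6 h over 0 h was -0.03. An intronic region of the G protein subunit gene Gng4, next to its start (chr13:13784489-13785810), held 17.3, 10.4, 24.0 and 21.3 tags. It was 0.598-fold (0.393–0.895) at 6 h of its 0 h level and then 2.32-fold (1.56–3.52) higher at 24 h. The same order held at the first exon of the tetraspanin gene Tspan17 (chr13:54788836-54790284), with 34.0, 23.9, 44.2 and 44.7 tags. It also held at the first exon of Itpr3, an inositol trisphosphate receptor gene (chr17:27056816-27058126), with 30.0, 19.6, 32.0 and 32.6 tags, and at the promoter of the collagen gene Col27a1 printed above (chr4:63213779-63216284), with 29.6, 19.6, 30.3 and 33.7 tags. At Itpr3 and Col27a1 the 24 h level was therefore close to that of 0 h. For these the start of gain at 24 h (1.63-fold, 1.20–2.23, at Itpr3 and 1.55-fold, 1.13–2.12, at Col27a1) is a return to the first level. Under TMM neither passed the limit, with log2 ratios of 0.42 at Itpr3 and 0.34 at Col27a1 for 24 h over 6 h.

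Not every region that started only returned to its first level. One at -90777 bp from the start of Lef1 (chr3:131018974-131020066), which encodes a factor needed for survival and expansion of pro-B cells, held 13.5, 11.8, 24.9 and 21.9 tags, with 24 h 2.10-fold (1.44–3.12) above 6 h and well above 0 h. The contact list joins it to the Lef1 promoter, with a count of 25 and a q-value of 0.000116.

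Regions that stopped had most of their gain in the first step. The Fam129c promoter printed above (chr8:71597229-71598211), of a gene known for expression in B cells, held 6.13, 24.5, 33.9 and 30.8 tags. It was 3.99-fold (2.59–6.32) higher at 6 h than at 0 h and 1.38-fold (1.04–1.84) higher at 24 h than at 6 h.

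Introns of Sardh, the sarcosine dehydrogenase gene (chr2:27211986-27212933), with 6.55, 23.3, 30.6 and 25.1 tags, of Prkce, a protein kinase C gene (chr17:86209255-86210255), with 12.1, 40.9, 56.5 and 44.9 tags, and of the cytokine gene Il16 (chr7:83717250-83717987), with 19.2, 56.2, 69.1 and 59.9 tags, shared this course. So did an intergenic region nearest the threonine aldolase gene Tha1 (chr11:117902065-117902948), with 6.77, 18.7, 20.8 and 18.4 tags, whose log2 ratio of 0.14 for 24 h over 6 h was -0.12 under TMM. All 4 gained 2.77-fold or more by 6 h and peaked at 24 h.

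Genes of the pre-B-cell receptor and its signalling were represented by 15 of 22 listed genes, each read by its strongest region. Of the 15, 4 were at least 1.5-fold higher at 24 h than at 6 h, 0 were lower and 12 were above 0, with a median log2 ratio of 0.38. Over all 799 genes the median was 0.24, and 124 (15.5%) were higher and 31 lower. Relative to the median of all regions the list stood at 0.12. In the first step 7 of the 15 had been at least 1.5-fold higher at 6 h than at 0 h, against 142 of all 799 genes. The 4 higher genes were Igll1, Vpreb1, Blnk and Sh3bp5, of which Blnk and Sh3bp5 were named after their values were seen.

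The Igll1 promoter (chr16:16863729-16864437), of the lambda5 chain of the surrogate light chain, held 4.65, 12.4, 19.1 and 36.6 tags. It was 1.54-fold (1.04–2.31) higher at 24 h than at 6 h, just above the limit, with 0.33 on the log2 scale under TMM, and it continued to gain to 72 h. The Cd79a promoter (chr7:24896982-24897767), of the signalling chain Ig-alpha, held 5.07, 13.8, 20.2 and 31.4 tags. At 1.46-fold (1.00–2.15) it was just below the limit and counts as stopped, although its course hardly differs from that of Igll1. The limit and not a difference in level separates these promoters. At 24 h Igll1 stood at 19.6% and Cd79a at 27.1% of Wt.

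Vpreb1, the partner of Igll1 in the surrogate light chain, held 2.54, 1.15, 4.10 and 1.73 tags at its promoter (chr16:16869013-16869570). The 3.56-fold (1.13–14.7) excess at 24 h rests on 4 sequenced tags at 6 h, was gone at 72 h, and is uncertain because Vpreb1 and Vpreb2 are nearly identical copies. An intron of Blnk, the linker of the receptor to Btk, had 4.64 tags at 24 h and 1.73 at 6 h (2.69-fold, 1.01–8.32). An intron of Sh3bp5, a binding partner of Btk, had 9.29 tags at 24 h and 5.76 at 6 h (1.61-fold, 0.901–2.95). Cd79b, the partner chain of Cd79a, had 2.46 tags at 24 h and 1.44 at 6 h, too few to call.

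Stronger regions of this list differed less. The Pik3ap1 promoter, of an adaptor that binds PI3 kinase (chr19:41384436-41385674), held 25.2, 31.4, 42.1 and 60.8 tags (1.34-fold, 1.04–1.73, at 24 h over 6 h). The Dok3 promoter, of an inhibitory adaptor (chr13:55527206-55529745), held 28.1, 40.6, 44.5 and 51.3 tags, and an intron near the kinase gene Blk (chr14:63377132-63377826) held 35.1, 53.3, 62.8 and 60.8 tags. Their log2 ratios of 0.13 and 0.23 for 24 h over 6 h were below 0 under TMM. The promoter of Vav2, a guanine nucleotide exchange factor gene (chr2:27426186-27427694), had 56.8 tags at 24 h and 62.8 at 6 h.

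B-lineage transcription factor genes were measured for 9 of 20 listed. By strongest region, none was past the limit in either direction at 24 h against 6 h (median log2 ratio 0.08). A region at -5126 bp from the start of Ebf1 itself (chr11:44612343-44613605) held 9.52, 12.4, 15.8 and 10.4 tags, 1.28-fold (0.847–1.94) at 24 h over 6 h. Since these cells lack intact Ebf1, that region shows nothing of the gene's own output. The E2A gene Tcf3 had an intergenic region that stopped (chr10:80442655-80443733), with 12.3, 22.2, 21.6 and 21.03 tags, and an intronic one near 5 tags. Spib, which encodes an Ets factor, was level at 67.5 tags at 24 h and 63.7 at 6 h, and its log2 ratio of 0.08 was -0.19 under TMM.

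Foxo1, which drives Rag expression, had 2 distal regions with folds on either side of 1, both with intervals that span 1. The one at 175850 bp (chr3:52443632-52444742) held 13.7, 17.9, 24.9 and 44.7 tags, 1.39-fold (0.997–1.95) at 24 h over 6 h, and the one at 190244 bp (chr3:52457979-52459184) held 7.82, 12.4, 8.47 and 11.5 tags, 0.683-fold (0.416–1.11), with a log2 ratio of -0.75 that passed the limit under TMM. Both are joined to the Foxo1 promoter in the contact list of the Abelson line. At Lef1 the 4 regions differed. Those at -90777, -55659 and 5098 bp from the start were 2.10-fold (1.44–3.12), 1.95-fold (1.10–3.57) and 1.77-fold (1.03–3.11) above 6 h at 24 h. The strongest on average over the 4 times, at -3411 bp (chr3:131106026-131107747), had 16.9 tags at 24 h and 22.5 at 6 h (0.754-fold, 0.531–1.07), and passed the limit as lower under TMM (log2 ratio -0.65). A list read by strongest region alone therefore misses the gains at Lef1. It also misses weaker regions that were higher at 24 h at Tcf4, Cxcr4, Id3, Pik3ap1 and Klf10. Their log2 ratios were 0.91, 0.99, 0.88, 0.77 and 0.84. Weaker regions of Blk and Il5ra were lower, at -0.67 and -0.72. No counting interval or TMM value is given for these weaker regions outside Lef1. Of all 799 genes, 187 had some region at least 1.5-fold higher at 24 h than at 6 h, against 124 by strongest region.

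Recombination genes were measured for 2 of 7 listed. A region at -26002 bp from the start of Rag2 (chr2:101598305-101599187) held 5.92, 6.91, 7.92 and 13.8 tags. Its log2 ratio of 0.17 for 24 h over 6 h was -0.07 under TMM. The contact list of the Abelson line joins it to Rag1 with a count of 25, and not to Rag2. An intergenic region at -6896 bp from the start of Dntt, the gene of terminal transferase (chr19:41022083-41022676), held 4.23, 5.76, 2.73 and 4.61 tags. It was past the limit as lower at 24 h, with an interval that spans 1 (0.474-fold, 0.198–1.06). In the contact list this region is joined to Blnk with a count of 39. Cytokine receptor and surface antigen genes were measured for 6 of 17, with 0 past the limit by strongest region and a median of 0.21. The strongest, in an intron of Bst1, a marker of early B-lineage cells (chr5:43824304-43825081), held 54.1, 70.6, 101 and 99.4 tags, 1.43-fold (1.21–1.69) at 24 h over 6 h. Cd24a had 71.0 tags at 24 h and 60.5 at 6 h, and Cxcr4 had 37.1 at 24 h and 35.7 at 6 h, and both log2 ratios were below 0 under TMM.

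Survival and cell cycle genes were measured for 3 of 11, with 0 past the limit by strongest region and a median of 0.28. The promoter of the survival gene Bcl2l1 (chr2:152830972-152831891) held 88.8, 93.9, 114 and 125 tags, and that of the cell cycle inhibitor gene Cdkn2c (chr4:109666260-109667328) held 67.9, 58.2, 81.1 and 76.1 tags, 1.39-fold (1.16–1.68) at 24 h over 6 h. Of the Notch, Wnt and TGF-beta genes, 4 of 11 were measured and Heyl was higher by its strongest region (median 0.41). The other Heyl region had a log2 ratio of -0.57 for 24 h over 6 h, just short of the limit as lower. Hes1 (chr16:30063372-30064533), another Notch target gene, had 69.4 tags at 24 h and 56.8 at 6 h (1.22-fold, 1.01–1.48). Progenitor, T and innate genes were measured for 3 of 17, Fli1, Id3 and Cd5. By strongest region, 0 were past the limit, with a median of -0.00. Myeloid genes (0 of 9) and erythroid and stromal genes (0 of 6) had no region.

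The 0 and 72 h columns enter neither side of the 24 h over 6 h ratio. Their ratio covers the first step too, which 49 of the 213 regions higher at 24 h had passed, so it does not isolate the second. At 72 h against 0 h, 500 of all regions (42.7%) were at least 1.5-fold higher, with a median log2 ratio of 0.50. The 213 regions higher at 24 h than at 6 h had a median of 0.83 (0.72–0.99), and 132 of them (62.0%, 55.3–68.2) passed this limit. The 56 lower regions had a median of 0.03 (-0.14 to 0.21), with 8 (14.3%, 7.42–25.7) past it. Among the 903 regions between, the median was 0.49 and the share 39.9%. Of the higher regions, 65.3% of the closed and 60.1% of the open ones passed it. At 72 h, 195 of the 213 higher regions were above their 6 h level. The counts were 10 of the 56 lower and 883 of all 1172 regions. The 6 h column enters both sides of that comparison, so part of it is built in.

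Against Wt progenitors, regions that started or continued were the ones furthest below the Wt level at 6 h. Wt values came from a separate pool and were used where the region matched by at least 80% of both lengths (1084 of 1172). Among open regions, those that continued held 41.4% (31.3–66.7) of their Wt value at 24 h and 24.4% (17.8–35.2) at 6 h at the median, over 33 regions. Those that started held 45.1% (42.8–56.6) at 24 h and 26.6% (22.6–31.1) at 6 h, over 101. Regions that stopped held 57.4% (47.0–65.2) at 24 h and 53.9% (42.3–58.6) at 6 h, over 137, and the other 601 held 63.6% at 24 h and 54.8% at 6 h. Regions that started were at 41.8% (35.7–52.3) at 72 h. The 6 and 24 h values enter both these shares and the classes, in closed regions too, so the differences at both times are in part built in. In closed regions the medians at 24 h were 36.7% in those that continued (14), 38.6% in those that started (47), 28.0% in those that stopped (35) and 20.0% in the rest (116).

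**Figure D4:**
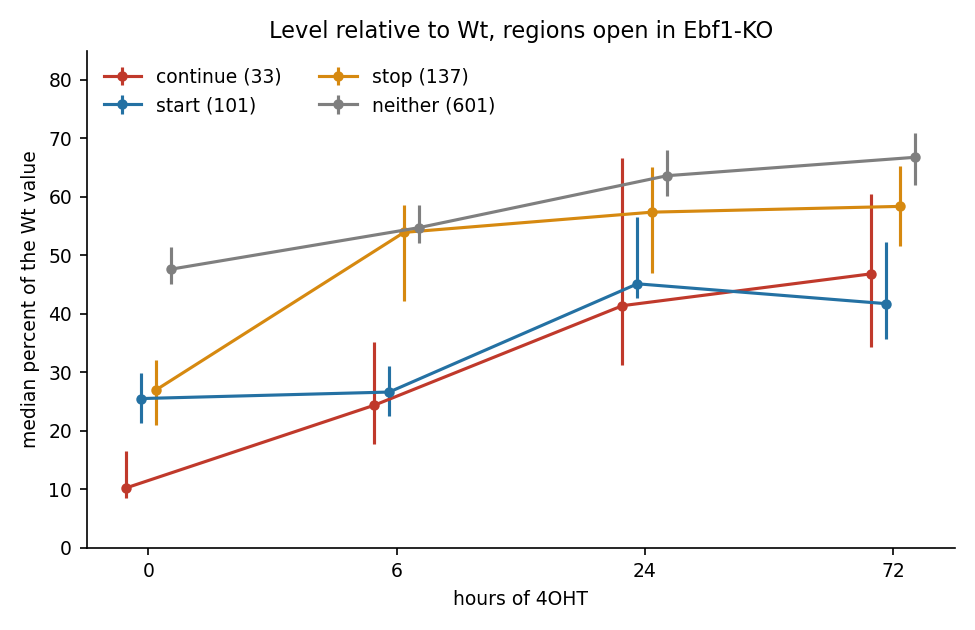
Median percent of the Wt ATAC value at 0, 6, 24 and 72 h for open regions by behaviour, with 95% intervals of the median over regions and the number of regions in brackets. Regions that continue or start lie at 41.4 and 45.1% at 24 h and at 24.4 and 26.6% at 6 h, while regions that stop are already at 53.9% at 6 h.

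Other readouts, taken in Ebf1-KO and Wt cells without the vector, are independent of the time course. At the open regions that continued to gain, Ebf1-KO cells fell furthest short of Wt in medians of PolII, H3K4me2, H3K27ac, BRG1 and EP300. RNA polymerase II had a median of 5.47 tags in Ebf1-KO and 49.9 in Wt at these 33 regions, a median log2 ratio of Ebf1-KO over Wt of -2.98 (-3.43 to -1.77). It was -1.58 (-2.06 to -1.06) at the 105 that started, -1.30 (-1.63 to -1.06) at the 140 that stopped and -0.59 (-0.75 to -0.46) at the other 638. H3K4me2, a mark of primed and active elements, had 7.19 tags in Ebf1-KO and 41.3 in Wt at regions that continued, with log2 ratios of -2.30 (-2.85 to -1.31) where gain continued, -1.05 (-1.51 to -0.55) where it started, -0.91 (-1.14 to -0.56) where it stopped and 0.13 (0.01–0.20) elsewhere. Regions that gained in neither step thus had about as much of this mark in Ebf1-KO as in Wt.

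H3K27ac, the mark of active enhancers and promoters, followed the same order, at -1.96 (-2.62 to -1.68), -1.31 (-1.46 to -0.90), -1.22 (-1.47 to -1.03) and -0.72 (-0.79 to -0.64). The chromatin remodeller BRG1 stood at -1.20 (-1.60 to -0.54) where gain continued, -0.45 where it started, -0.24 where it stopped and 0.03 elsewhere. The libraries labelled EP300, an acetyltransferase, stood at -1.67, -0.76, -0.44 and -0.23, but the antibody field of the Wt EP300 sample names PolII antibodies with a question mark, so this readout may not be what its title says. The polycomb mark H3K27me3 was near its floor, with medians under 2 tags in both genotypes, and its log2 ratios were 0.33, 0.15, 0.19 and -0.09. Intervals of regions that continued and of those that started overlapped in every readout except H3K27ac, and those of started and stopped regions overlapped in all 6 readouts. Median ATAC levels at 0 h differed along with the classes, at 5.29, 8.88, 7.72 and 18.8 tags in regions that continued, started, stopped and gained in neither step, and the part of this in the readouts was not tested. In the closed class, where all regions lacked accessibility in Ebf1-KO by selection, the intervals of the medians overlapped between classes in every readout. PolII stood there at -2.80 where gain continued, -2.51 where it started, -2.11 where it stopped and -2.27 elsewhere.

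**Figure D5:**
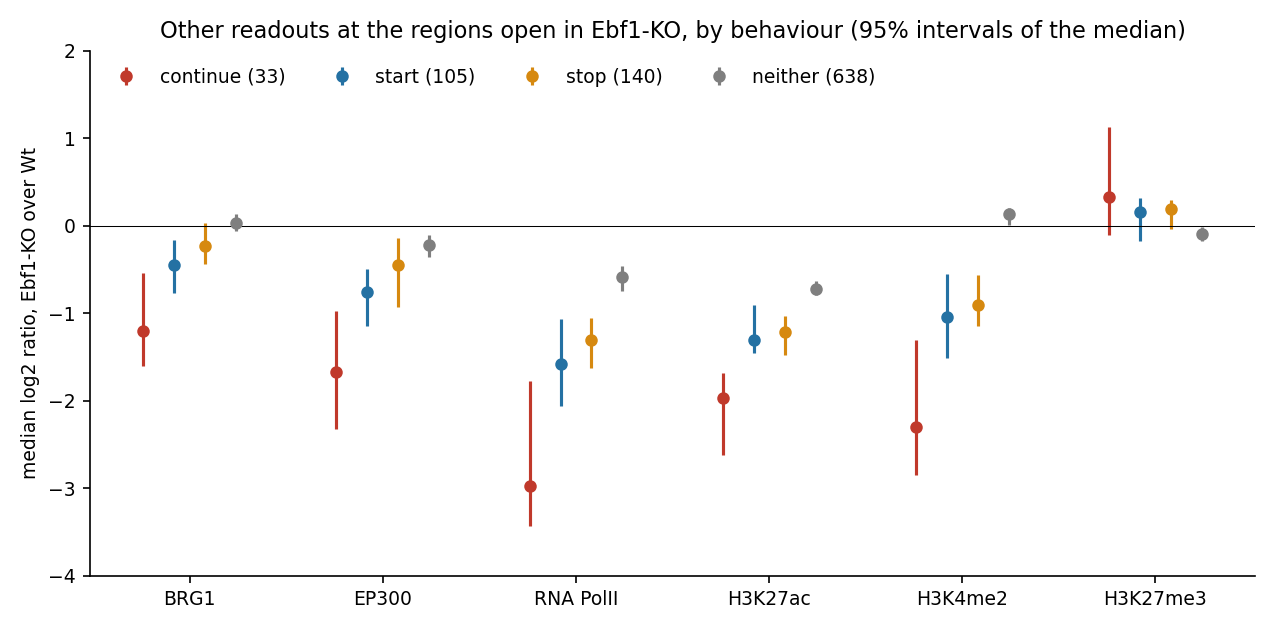
Median log2 ratio of Ebf1-KO over Wt for 6 readouts at the 916 open regions, by behaviour in the time course, with 95% intervals of the median over regions. For BRG1, EP300, PolII, H3K27ac and H3K4me2 the regions that continue to gain lie lowest and those that gain in neither step lie highest.

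Fli1, an Ets factor of progenitors, had a Wt peak at 40 of the 49 regions that continued (81.6%, 68.6–90.0), against 770 of all 1172 (65.7%). The shares were 61.6% where gain started, 62.0% where it stopped and 66.5% elsewhere. Ikzf1, a lymphoid zinc finger factor, had Wt peaks at 36.7, 30.5, 25.1 and 27.1% in the same order, and 27.6% of all. Pax5, the factor that acts after Ebf1, had peaks in the Abelson line at 49.0, 50.6, 43.3 and 58.0%, and at 54.3% of all regions. At open regions the median log2 ratio of 24 h over 6 h was 0.25 with and without a Pax5 peak, and at closed regions it was 0.18 (0.05–0.38) with and 0.34 (0.18–0.43) without one.

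Annotation and level went with the share of gaining regions. Of the 178 promoters 12.4% were at least 1.5-fold higher at 24 h than at 6 h, of 484 intronic regions 20.5% and of 374 intergenic regions 19.3%. The median log2 ratios were nearly the same at 0.24, 0.25 and 0.25. Promoters held a median of 37.8 tags at 24 h, intronic regions 13.2 and intergenic regions 10.9. The shares were 10.1, 16.9 and 16.2% in the open class, in the same order. In the closed class they were 31.6% (6 of 19), 32.1% and 26.9%. The 242 regions with a mean level above 40 tags had 3.72% higher and 0 lower, and the 237 regions under 5 tags had 19.4% higher and 15.6% lower. Only 6 of the 46 higher regions under 5 tags had a counting interval above 1, against 61 of 63 between 10 and 20 tags. By length, the 390 longest regions had 10.0% higher and the 394 shortest 23.9%, with medians of 34.6 and 7.65 tags at 24 h.

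Several regions shared a gene in 231 of the 799 genes, and 20 regions overlap another region of the set. At least 2 regions were higher at 24 h than at 6 h in 16 of these genes, among them Lef1, 2410012E07Rik and the cyclin gene Ccnd3, and 10 genes had both a higher and a lower region. At Ccnd3 the strongest region, at its first exon (chr17:47593101-47594061), was level with 36.9 tags at 24 h and 39.2 at 6 h. An intronic one (chr17:47541762-47542645) had 50.5 tags at 24 h and 31.1 at 6 h (1.62-fold, 1.27–2.08).

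The nearest gene is not always the one a region contacts. All 474 regions over 10000 bp from a start and not annotated as promoters overlapped an anchor of the Abelson line's contact list. The overlap was complete in every class and regions outside the set were not compared, so nothing is read from it. Of the 474, 167 (35.2%, 31.1–39.6) were joined to the promoter of their nearest gene. The share was 8 of 21 where gain continued, 36 of 75 (48.0%, 37.1–59.1) where it started, 30 of 96 (31.3%) where it stopped and 93 of 282 (33.0%) elsewhere. The Sardh region was joined to Vav2 with a count of 12, the Dnah1 region to Sh3bp5 with 12 and the Scd1 region to Erlin1 with 10. The Tha1 region was joined to the cytokine inhibitor gene Socs3 with 38 and to Tha1 itself with 15. The Arl5c region was joined to Rpl19 with 81. At -4343 bp it lies nearer its own start than the list's minimum distance of 10000 bp, so nothing is read from the missing contact with Arl5c. These contacts were measured in the transformed line and not in the induced cells.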

How the data were processed

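ATAC-seq of Ebf1-KO fetal liver cells with Ebf1ER was analysed at 0, 6, 24 and 72 h of 4OHT. The submitters' processing notes list, for build mm10 (GRCm38.p5), the tools Trim Galore 0.6.4, Bowtie2 2.3.5, HiC-Pro 2.11.1, SAMtools 1.9, HOMER 4.10 and deepTools 3.3.1, with FastQC, edgeR, MACS2 and Picard lacking a version. The signal in each region is its tag number, which the authors scaled to a library of 10000000 tags, per the file headers, with no division by length. Columns are pools without mitochondrial reads, per the file headers. Value times library total over 10000000 returned whole tags within 0.1 tag in every region, and these gave the intervals. For Ikzf1 and Fli1, the authors deposited peaks with a score each, of which the positions alone were used. The contact list holds, as deposited, a count for each contact between 5 kb bins and its q-value after bias correction, at a q threshold of 0.05.

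Log2 ratios of value plus 1 were computed per region with a limit of 1.5-fold. Levels carry exact Poisson, folds exact conditional, medians order-statistic and shares Wilson 95% intervals, for counting error or for the spread among regions. Nothing in the labels says that the 2 samples per time came from separate animals. TMM used edgeR 4.0.16 on the recovered tags and median-of-ratios DESeq2 1.42.0, in R 4.3.3. All else was computed with pandas 2.3.3, numpy 2.4.6 and SciPy 1.17.1 in Python 3.11.15 and drawn with matplotlib 3.10.9. The scripts were tested on simulated data. By its name the Wt ATAC column pools 6 libraries, while 3 Wt samples are labelled. Value columns that match no labelled sample, 7 in all, were not used.

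Regions are named by the gene whose start is nearest in the authors' annotation. Named regions were the 8 with the largest and the 8 with the smallest ratio per class, at most 1 per gene, with at least 10 (closed) or 20 (open) tags at either time, the leading regions of each behaviour, up to 4 genes per list by mean level, and regions of fixed B-lineage genes. Some regions that these rules name are not reported here. Regions, lists and rules were chosen with earlier results of these data known. Alternatives were TMM and median-of-ratios scaling, pseudocounts of 0.5 and 5, a filter at 10 tags, a 2-fold limit, a counting interval that excludes 1, and lengths of 500 to 1500 bp. Ratios relative to the median of all regions were added after seeing the data. No mm10 genome was used here, so motifs were searched in RefSeq promoter windows alone.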

Additional observations from a re-analysis of the deposited data

How the results depend on the processing

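Without replicate columns, the results are values with counting intervals, and depth limits closed regions most. Under TMM, 33 closed and 59 open regions were at least 1.5-fold higher at 24 h than at 6 h, against 75 and 138 with library totals, 102 were lower against 56, and 9 continued, 83 started and 108 stopped, against 49, 164 and 187. The medians were 0.0727 (closed) and -0.00958 (open) against 0.29 and 0.25. With median-of-ratios scaling the counts were 36, 61 and 97, then 11, 86 and 117, and the medians 0.0858 and 0.00465. Centred on that of all regions, an alternative chosen after seeing the data, they were 29, 59 and 107, then 9, 79 and 102, and 0.0343 and -0.00459. A pseudocount of 5 gave 16, 75 and 10, then 9, 82 and 103, and 0.16 and 0.21. With at least 10 tags at either time, 16 closed regions were higher, 13 of both classes lower, 90 started and 122 stopped, and the closed median was 0.72. A 2-fold limit gave 15, 23 and 11, then 0, 38 and 70. Requiring a counting interval that excludes 1 left 31 closed higher and 21 lower regions. Lengths of 500 to 1500 bp left 48 closed higher regions. The cause was not tested, beyond the fewer regions or stricter limits that some settings impose. A pseudocount of 0.5 moved none of these counts by over 1.5 times. Of 79 named regions, 5 moved beyond their counting interval under TMM, 2 with median-of-ratios, 1 with the pseudocount of 5 and 2 when centred on the median. Under TMM the log2 ratio changed sign at Ssc5d, Tha1, Rag2, Blk, Dok3, Spib, Cd24a, Cxcr4, Cd38 and Hes5. No paired analysis was possible because each time is 1 pooled column without replicate numbers, and for the same reason no sample could be left out in turn.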
